A study of Mus musculus with 12 samples.

Results

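The genes of MHC class II presentation were followed in the skin of female Balb/c mice given RNAdjuvant, a vaccine adjuvant made of non-coding RNA packed with a cationic peptide. The set held 7 of the 19938 genes measured: H2-Aa, H2-Ab1, H2-Eb1, H2-DMa, Cd74, Ciita and Ctss. Each gene was chosen by its symbol, and each had 1 probe set on the Affymetrix arrays. Total RNA of whole skin was amplified from 50 ng, and 12 arrays fell into 4 groups of 3: untreated skin and skin taken 1.5 h, 6 h and 24 h after an intradermal injection of 25 mg as the labels write the dose. The labels call the arrays of a group biological replicates and do not say that each came from a separate mouse, so p-values measure the spread between these samples. All mice had the same strain and sex, and their age and the body site are not stated. The comparison group received no injection, so RNAdjuvant cannot be told apart from its carrier or from the needle.

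MHC class II molecules are pairs of an alpha and a beta chain that show peptides from swallowed material to CD4+ T cells. The chains are built around the invariant chain, which carries them to the endosome and is cut there in steps. A small remnant of it stays in the peptide groove until the DM molecule swaps it for an antigen peptide. Ciita is the coactivator that switches on these genes together. It is bound to their promoters through the factors that sit on the X and Y boxes, and interferon gamma is its best known inducer. In resting skin the main cells with class II are Langerhans cells of the epidermis and dendritic cells and macrophages of the dermis.

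Of the 7 genes, 1 changed against untreated skin. Ctss, the protease cathepsin S, was 2.44-fold higher at 24 h. The class II chains, the invariant chain, the DM chain and Ciita passed the test at no time. At 24 h the 95% intervals of these 6 genes ran from 1.43-fold lower (Ciita) to 1.43-fold higher (H2-Eb1). A larger mean change than that lay outside the interval of each of them. The arrays measured bulk skin, in which a change in the number of cells cannot be told apart from a change in RNA per cell.

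The tests were limma's moderated tests on the deposited log2 values, with p-values adjusted by Benjamini-Hochberg over all 19938 genes and a threshold of 0.05. At 1.5 h against untreated skin, 0 of the 7 genes passed, beside 2.2% of all genes, of which 0.612% of all genes rose and 1.59% fell. At 6 h, 0 of 7 passed, beside 6.09% of all genes, 3.38% up and 2.71% down. At 24 h, 1 of 7 passed, beside 3.36% of all genes, 2.55% up and 0.808% down. The number at an unadjusted p under 0.05 was 1 gene at 1.5 h (Ciita), 2 at 6 h (H2-DMa and Ctss) and 1 at 24 h (Ctss). With 7 genes, these counts stood near the shares of all genes. The moderated F test over the whole time course passed for 1 of 7 (Ctss, adjusted p = 0.00673), beside 11.4% of all genes, and the other 6 had adjusted p from 0.132 to 0.955.

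The split of all calls between up and down turned on the scaling. At 1.5 h, 27.8% of the called genes were higher than in untreated skin, against 56.9% with arrays centred on their medians and 43.2% after quantile normalization. At 24 h the share higher was 76% and 84.9% with centred arrays. Centring moved the median change of all genes at 1.5 h to 0.12, from 0.02 as deposited. The median over the 7 genes was -0.14 at 1.5 h, -0.07 at 6 h and 0.06 at 24 h on the log2 scale, and the median over all genes was 0.02, -0.04 and 0.001.

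Promoter sequences of 4 of the 7 genes were in the RefSeq promoter table (build GRCm38.p6), those of H2-Aa, H2-Eb1, H2-DMa and Ctss. H2-Aa and H2-Eb1, which passed no test, are shown beside Ctss, which did. H2-DMa did not pass against untreated skin either and is not shown. The 120 bases before its listed starts hold no match to the motifs marked here. Each line gives the 120 bases before the transcription start, read 5′ to 3′ along the gene. Capitals mark CCAAT, the core of the Y box (ATTGG where it reads on the other strand), and in Ctss a match to GAAANNGAA, the core of an interferon response element.
H2-Aa: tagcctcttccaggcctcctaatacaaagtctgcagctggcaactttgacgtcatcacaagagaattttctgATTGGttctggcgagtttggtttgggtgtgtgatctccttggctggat
H2-Eb1: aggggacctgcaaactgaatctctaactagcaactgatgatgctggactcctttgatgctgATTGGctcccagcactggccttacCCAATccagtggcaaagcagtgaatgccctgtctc
Ctss: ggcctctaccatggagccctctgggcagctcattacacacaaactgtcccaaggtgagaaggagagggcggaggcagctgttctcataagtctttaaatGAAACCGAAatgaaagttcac

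The stretches lie at chr17:34287824-34287943 on the minus strand (H2-Aa), chr17:34305747-34305866 on the plus strand (H2-Eb1) and chr3:95526666-95526785 on the plus strand (Ctss). In windows from 250 bases before to 50 bases after the start, searched on both strands, CCAAT began 48 bases before the start of H2-Aa. It stood at 59 and at 35 bases before the start of H2-Eb1, and at 198 bases before 1 of the 2 listed starts of H2-DMa. The letters ACAGATG, used here as an X box core, matched 232 bases before the start of H2-Aa, outside the stretch shown. GAAANNGAA was found 21 bases before the start of Ctss and in no other window of these genes, and TTCNNNGAA, the gamma-activated site, in none. Of all 32851 promoters, 37.4% held CCAAT, 5.0% ACAGATG, 8.6% GAAANNGAA and 8.3% TTCNNNGAA. A match says only that these letters are there, not that they form the box or site. A missing match does not show that a promoter lacks it. The reference sequence is that of C57BL/6, which carries another H2 haplotype than Balb/c. Whether the alleles of Balb/c bind the probes less well was not tested, and the strain was the same in all 4 groups.

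The classical chains stayed close to their level in untreated skin. H2-Aa, the alpha chain of the I-A molecule, had log2 values of 10.91, 10.55 and 10.69 in untreated skin, 10.72, 10.45 and 10.91 at 1.5 h, 10.71, 10.73 and 10.80 at 6 h, and 10.69, 10.82 and 10.80 at 24 h. All 3 treated groups overlapped with untreated skin, and all 12 arrays lay within a 1.38-fold range, the narrowest of the 7 genes. The change was -0.02 at 1.5 h (95% interval -0.30 to 0.25), 0.03 at 6 h (-0.25 to 0.30) and 0.05 at 24 h (-0.22 to 0.33), with adjusted p of 0.949, 0.904 and 0.878. With arrays centred on their medians the change at 1.5 h was 0.08 and that at 6 h was -0.004, so no direction can be given to H2-Aa at either time.

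H2-Ab1, the beta chain that pairs with H2-Aa, had log2 values of 8.93, 8.46 and 8.64 in untreated skin, 8.62, 8.32 and 8.67 at 1.5 h, 8.60, 8.46 and 8.70 at 6 h, and 8.80, 8.71 and 8.97 at 24 h. Treated groups overlapped with untreated skin at each time, and the highest array was replicate 3 of 24 h. The change was -0.14 at 1.5 h (-0.44 to 0.16), -0.09 at 6 h (-0.38 to 0.21) and 0.15 at 24 h (-0.15 to 0.44), with adjusted p of 0.64, 0.728 and 0.635. H2-Eb1, the beta chain of the I-E molecule, had 10.36, 10.06 and 10.33 in untreated skin, 9.93, 9.98 and 10.42 at 1.5 h, 10.23, 9.86 and 10.36 at 6 h, and 10.40, 10.33 and 10.55 at 24 h. Its means lay in the same order as those of H2-Ab1, lowest at 1.5 h and highest at 24 h, and neighbouring groups did not differ beyond their spread. The change was -0.14 (-0.48 to 0.20), -0.10 (-0.44 to 0.24) and 0.18 (-0.16 to 0.52) at the 3 times, with adjusted p of 0.695, 0.723 and 0.616.

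The invariant chain passed at no time either. Cd74 had log2 values of 11.31, 11.08 and 11.18 in untreated skin, 11.12, 10.76 and 11.16 at 1.5 h, 11.04, 11.12 and 11.21 at 6 h, and 11.01, 11.21 and 11.13 at 24 h. Treated groups overlapped with untreated skin at each time, and the lowest array was replicate 2 of 1.5 h. The change was -0.18 at 1.5 h (-0.44 to 0.08), -0.07 at 6 h (-0.33 to 0.19) and -0.07 at 24 h (-0.34 to 0.19), with adjusted p of 0.475, 0.762 and 0.813. The highest rise inside any of these intervals was 1.14-fold.

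H2-DMa, the alpha chain of the DM molecule that exchanges peptides in the groove, was lower at 6 h than at the other times without passing the test. It had log2 values of 8.93, 8.67 and 8.75 in untreated skin, 8.93, 8.64 and 8.94 at 1.5 h, 8.65, 8.32 and 8.48 at 6 h, and 8.74, 8.85 and 8.94 at 24 h. All 3 arrays of 6 h lay below all 3 of untreated skin, while the other groups overlapped with untreated skin. The change at 6 h was -0.30 (-0.57 to -0.04), with an unadjusted p of 0.0291 from limma and an adjusted p of 0.165. The differences between 6 h and 1.5 h (-0.35, adjusted p = 0.0744) and between 24 h and 6 h (0.36, adjusted p = 0.123) did not pass. Between 6 h and 1.5 h it passed with arrays centred on their medians (-0.49, adjusted p = 0.0204) and when dim genes were left out (-0.35, adjusted p = 0.0445). With centred arrays 4609 of 19938 genes passed in that comparison, and the median change of all genes was -0.17. With dim genes left out 3037 of 11296 passed, and the median was -0.12. The pass is thus not particular to H2-DMa. At 1.5 h and 24 h the changes against untreated skin were 0.05 and 0.06, with adjusted p of 0.866 and 0.857.

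Ciita, the coactivator of the other class II genes, was lowest at 1.5 h, again without passing the test. It had log2 values of 6.75, 6.24 and 6.27 in untreated skin, 6.14, 5.73 and 6.17 at 1.5 h, 6.35, 6.35 and 6.39 at 6 h, and 6.41, 6.25 and 6.07 at 24 h. All 3 arrays of 1.5 h lay below all 3 of untreated skin, and the gap between the nearest arrays was smaller than the spread within either group. The change at 1.5 h was -0.41 (-0.74 to -0.07), with an unadjusted p of 0.0206 from limma and an adjusted p of 0.191. It was -0.27 without replicate 2 of 1.5 h and -0.24 without replicate 1 of untreated skin. At 6 h the change was -0.06 (-0.39 to 0.28) and at 24 h it was -0.18 (-0.51 to 0.16), with adjusted p of 0.845 and 0.604. A rise of Ciita of more than 1.21-fold at 6 h or 1.115-fold at 24 h lay outside these intervals. The gene is known to start from several promoters in different cell types, and 1 probe set does not tell these transcripts apart.

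Ctss, the endosomal protease that makes the late cuts in the invariant chain of dendritic cells and B cells, rose at 24 h. It had log2 values of 9.39, 8.67 and 9.17 in untreated skin, 9.48, 8.84 and 9.45 at 1.5 h, 9.97, 9.49 and 9.60 at 6 h, and 10.07, 10.43 and 10.59 at 24 h. Arrays of 6 h and of 24 h all lay above those of untreated skin, those of 24 h all lay above those of 6 h, and those of 1.5 h overlapped with untreated skin. Ctss averaged 10.36 ± 0.26 at 24 h and 9.08 ± 0.37 in untreated skin (SD, n = 3 each). The change at 24 h was 1.29 with a standard error of 0.22 (0.82 to 1.75), a 2.44-fold rise, and its adjusted p was 0.00326 in limma. It stayed between 1.09 and 1.44 when each of the 12 arrays was left out in turn, and the highest adjusted p was then 0.0249. At 6 h the change was 0.61 (0.14 to 1.08), which did not pass (adjusted p = 0.115), and at 1.5 h it was 0.18 (-0.29 to 0.64, adjusted p = 0.72). None of the intervals of the other 6 genes at 24 h reached the lower end of that of Ctss, and the difference between genes was not itself tested.

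**Figure D1:**
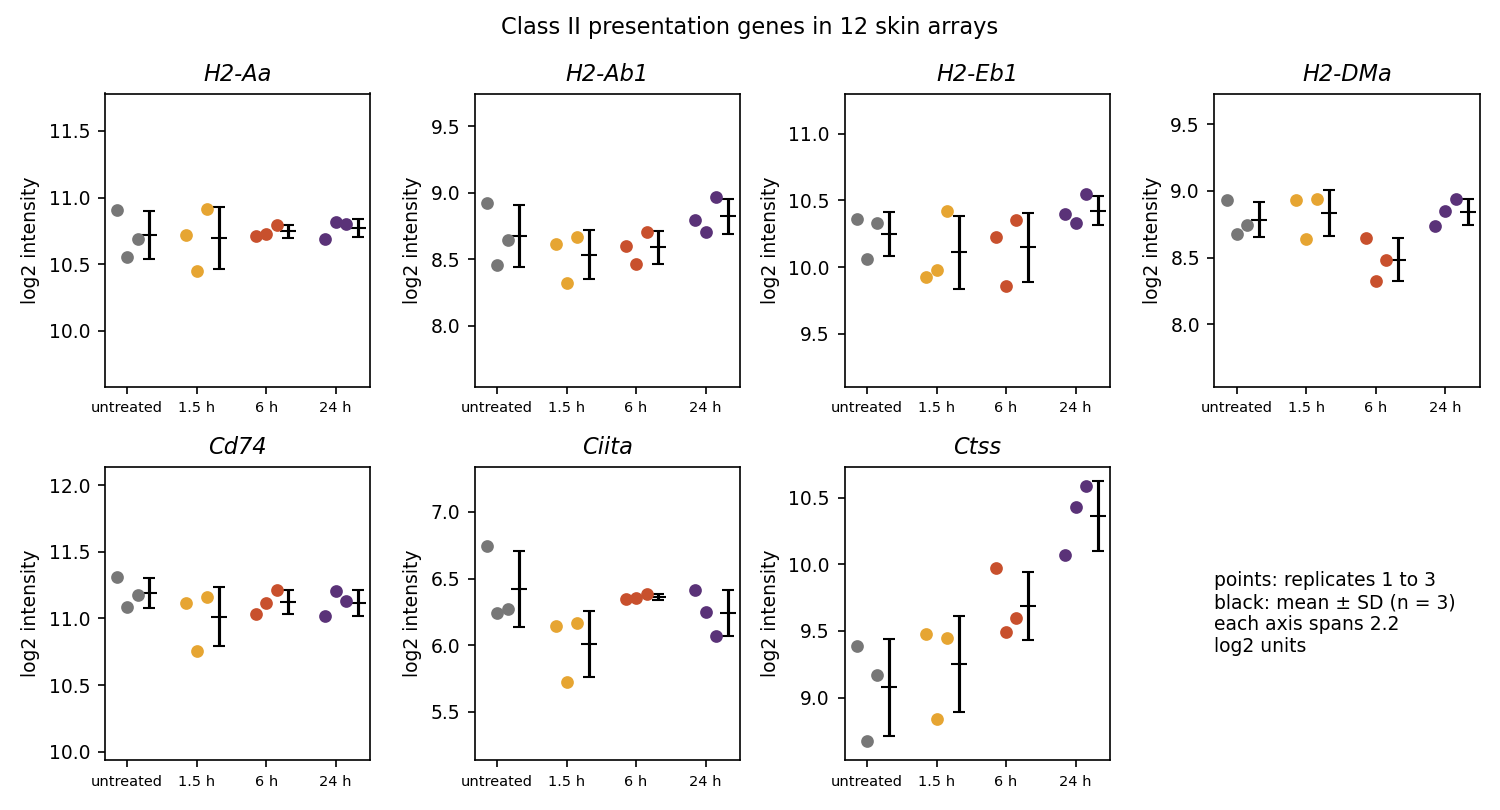
Log2 array values of the 7 class II presentation genes (y axis, log2 intensity, each axis spanning the same width) in untreated skin and 1.5 h, 6 h and 24 h after RNAdjuvant (x axis), with a point for each of the 3 arrays and the mean ± SD in black. The arrays of Ctss at 24 h, 10.07 to 10.59, all lie above the highest untreated array at 9.39, while H2-Aa, H2-Ab1, H2-Eb1 and Cd74 overlap with untreated skin at each time.

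Differences between the times after injection singled out the same gene. Between 24 h and 1.5 h, 1 of 7 passed, beside 2.91% of all genes: Ctss averaged 10.36 at 24 h and 9.25 at 1.5 h, a difference of 1.11 (0.64 to 1.58, adjusted p = 0.0112). This call was lost without replicate 2 of 1.5 h (adjusted p = 0.062), replicate 2 of 24 h (0.0559) or replicate 3 of 24 h (0.052). Between 24 h and 6 h, 0 of 7 passed, beside 3.44% of all genes, with Ctss at 0.68 (adjusted p = 0.103). Between 6 h and 1.5 h, 0 of 7 passed, beside 13.3% of all genes, with Ctss at 0.43 (adjusted p = 0.199). For the other 6 genes the differences between times ran from -0.35 (H2-DMa, 6 h minus 1.5 h) to 0.36 (H2-DMa, 24 h minus 6 h). H2-Ab1 and H2-Eb1 were 0.29 and 0.31 higher at 24 h than at 1.5 h, with adjusted p of 0.337 and 0.361.

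**Figure D2:**
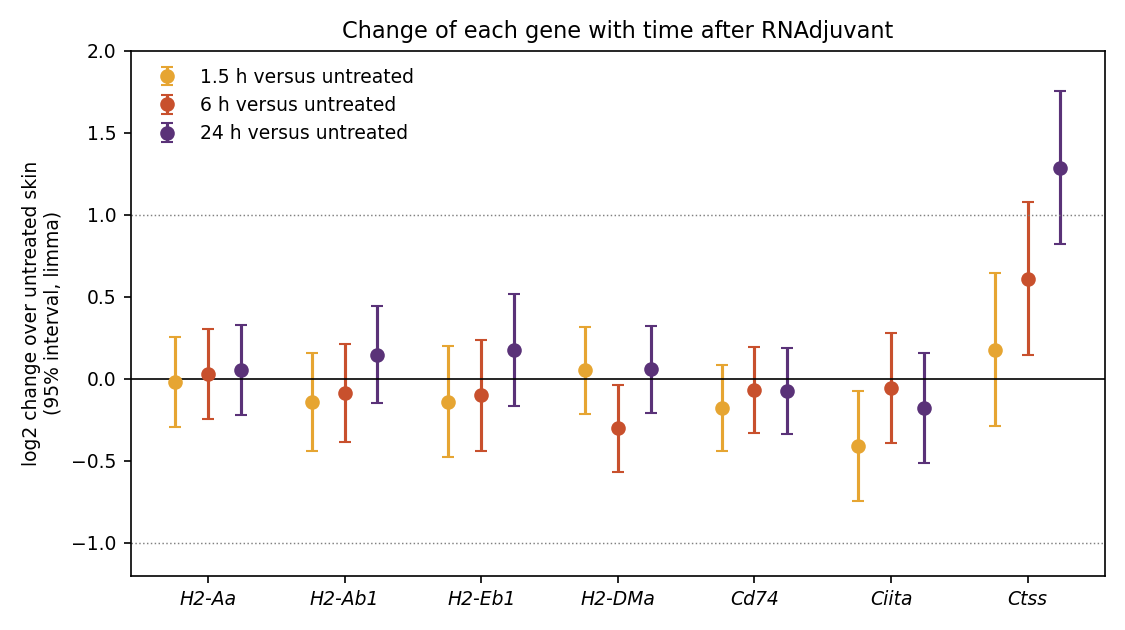
Log2 change against untreated skin (y axis) of each of the 7 genes (x axis) at 1.5 h, 6 h and 24 h, with 95% intervals from limma and dotted lines at -1 and 1. Ctss at 24 h stands at 1.29, and the intervals of the other 6 genes at 24 h lie between -0.51 and 0.52.

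The 7 genes shared their order of arrays in untreated skin and mostly at 1.5 h, and less so at 6 h and 24 h. In untreated skin, replicate 1 was the highest array for 7 of 7 genes and replicate 2 the lowest for 7 of 7. At 1.5 h, replicate 2 was the lowest for 6 of 7 and replicate 3 the highest for 6 of 7. At 6 h, replicate 2 was the lowest for 4 and replicate 3 the highest for 5, and at 24 h no array was extreme for more than 4. In untreated skin the shared order thus reached across genes on chromosomes 3, 16, 17 and 18. How all genes ordered these arrays was not counted, so the order cannot be called particular to the 7. The mean of H2-Aa, H2-Ab1, H2-Eb1 and Cd74 lay between -0.17 and 0.17 of its untreated mean in untreated skin, between -0.33 and 0.08 at 1.5 h, between -0.17 and 0.06 at 6 h and between 0.02 and 0.15 at 24 h. Ctss lay between -0.40 and 0.31, between -0.24 and 0.40, between 0.42 and 0.90, and between 1.00 and 1.51 of its own untreated mean in the same groups. The 24 h arrays thus lay inside the untreated range for the class II mean and outside it for Ctss.

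Other class II genes showed no call. Of 4 further class II molecules with a probe set of their own, 0 rose, 0 fell and 4 did not pass at each of the 3 times. H2-Ea, the alpha chain of I-E, was at -0.06, 0.02 and 0.13 at 1.5 h, 6 h and 24 h, and averaged 10.53 ± 0.15 at 24 h and 10.40 ± 0.12 in untreated skin. H2-Oa and H2-Ob, the chains of the DO molecule that restrains DM, were at 0.35, 0.22 and -0.08 and at 0.02, 0.37 and -0.29. The highest H2-Oa arrays were replicate 1 of 1.5 h and replicate 1 of 6 h, at 6.21 and 5.95. H2-Eb2, a beta chain gene next to H2-Eb1, was at -0.01, 0.13 and 0.00 and had array values from 4.19 to 4.57. H2-DMb1 and H2-DMb2, the beta chains of DM, shared 1 probe set and are not reported here.

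The factors that seat Ciita on the promoters gave 1 call of low stability. Of 7 genes for subunits of RFX and NF-Y and for Creb1, 0 passed at 1.5 h, 1 rose at 6 h and 0 passed at 24 h. Rfx5, the RFX subunit named for class II deficiency, had log2 values of 6.78, 6.69 and 6.59 at 6 h and of 6.18, 6.30 and 6.34 in untreated skin. Its change at 6 h was 0.41 (adjusted p = 0.0361), and the call was lost without any of the 6 arrays of these groups, with an adjusted p of up to 0.136, and in 5 of 8 other settings. The 3 genes of class II surface turnover passed at no time. Marchf1, a ligase that takes class II off the surface, was at 0.17, 0.48 and 0.55, and Cd83, which holds class II at the surface by opposing it, was at 1.07, 0.62 and -0.16, with adjusted p of 0.114 or above for both.

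Some endosomal proteases other than Ctss rose at 24 h. Of 16 further genes of endosomal proteases and processing, not all of them proteases, 0 passed at 1.5 h, 1 rose at 6 h and 5 rose at 24 h. None fell. Their median change at 24 h was 0.33, beside 0.001 for all genes. Ctsz, cathepsin Z, had log2 values of 9.79, 9.85 and 9.97 at 24 h and of 8.95, 8.49 and 8.95 in untreated skin, a change of 1.07 (adjusted p = 0.00101). Lgmn, the asparagine endopeptidase legumain, was at 1.05 (adjusted p = 0.0123), and Ctsc, the dipeptidyl peptidase cathepsin C, at 0.72 (adjusted p = 0.0147). Sppl2a, the intramembrane protease that clears the last piece of the invariant chain, was at 0.69 at 6 h (adjusted p = 0.0014) and 0.45 at 24 h (adjusted p = 0.0355). Ifi30, the thiol reductase that opens disulphide bonds of antigens, did not pass, at 0.08, -0.25 and 0.36. The count of 5 at 24 h fell to 1 (Ctsz) without replicate 2 of untreated skin, replicate 2 of 24 h or replicate 3 of 24 h. It was 3 without replicate 1 or 3 of untreated skin and with every probe set tested. Over single arrays left out, the highest adjusted p was 0.0674 for Lgmn, 0.0788 for Ctsc and 0.159 for Sppl2a. Ctsw, cathepsin W, was the remaining call at 24 h. It was lost in 9 of the 12 fits without 1 array, with an adjusted p of up to 0.158, and in 2 of 8 other settings.

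Several regulators known to act on Ciita passed the test. Of 14 such genes, 1 rose at 1.5 h, 6 rose and 1 fell at 6 h, and 5 rose and 1 fell at 24 h. Irf1, an interferon-induced factor that binds a Ciita promoter, had log2 values of 8.38, 8.27 and 8.16 at 1.5 h, 9.41, 9.73 and 9.66 at 6 h, and 8.67, 8.95 and 8.46 at 24 h, against 7.37, 7.39 and 7.41 in untreated skin. Every treated array was above every untreated one, with changes of 0.88, 2.21 and 1.30 (adjusted p = 0.00552, 1.22e-07 and 3.04e-05). Il10, a cytokine that lowers class II at the surface of monocytes, was at 2.41 at 6 h (adjusted p = 1.91e-06) and 1.11 at 24 h (adjusted p = 0.00433). Irf2, a factor that shares the binding site of Irf1, was at 1.16 at 6 h (adjusted p = 1.33e-05). Spi1, the myeloid factor PU.1, was at 1.04 at 24 h (adjusted p = 0.00444). Without replicate 2 of untreated skin, 3 of the 5 calls at 24 h were left.

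Ifng, the cytokine interferon gamma, had log2 values of 4.45, 5.08 and 4.49 at 6 h and 4.66, 4.35 and 4.65 at 24 h, against 4.29, 4.24 and 3.96 in untreated skin. All arrays of 6 h and 24 h lay above untreated skin, and the changes of 0.51 and 0.39 did not pass (adjusted p = 0.0869 and 0.249). Of the genes that fell, Irf4, a lymphocyte and dendritic cell factor, was at -0.76 at 6 h (adjusted p = 0.0228). Prdm1, the repressor Blimp-1 that shuts off Ciita in plasma cells, was at -0.63 at 24 h (adjusted p = 0.0195). The Irf4 call was lost without replicate 3 of untreated skin or replicate 2 or 3 of 6 h, with an adjusted p of up to 0.0953. The Prdm1 call was lost without replicate 1 or 3 of untreated skin or replicate 1 or 3 of 24 h, with an adjusted p of up to 0.0815.

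Most of the measured genes of class I presentation, which shows peptides made inside the cell, rose in the same skin. Of 9 such genes, 0 passed at 1.5 h, 7 rose at 6 h and 7 rose at 24 h, with medians of 0.01, 1.06 and 0.91, and none fell. The class I heavy chains H2-K1, H2-D1 and H2-T23 had no probe set of their own and are not among the 9. B2m, the light chain, passed at no time. It averaged 12.37 at 6 h and 12.50 at 24 h, against 12.18 in untreated skin, with all arrays of both times above untreated skin. Psmb10, a subunit of the immunoproteasome, was at 1.78 at 6 h (adjusted p = 8.17e-06) and 1.69 at 24 h (adjusted p = 2.32e-05). Tap1, a chain of the peptide transporter, was at 1.51 at 6 h (adjusted p = 9.16e-06). Psmb8 and Psmb9, further subunits of the immunoproteasome, were at 1.61 and 1.40 at 24 h (adjusted p = 1.45e-05 and 8.38e-05). Nlrc5, the class I counterpart of Ciita and a protein of the same family, had log2 values of 9.46, 9.83 and 9.52 at 6 h and of 8.39, 8.45 and 8.06 in untreated skin, a change of 1.30 (adjusted p = 2.96e-04). At 24 h it was at 0.57 and did not pass (adjusted p = 0.0987). The counts of 7 at 6 h and at 24 h did not move when each array was left out in turn. Psmb8, Psmb9 and Tap1 are known to lie in the class II region of chromosome 17, between H2-DMa and H2-Ob.

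**Figure D3:**
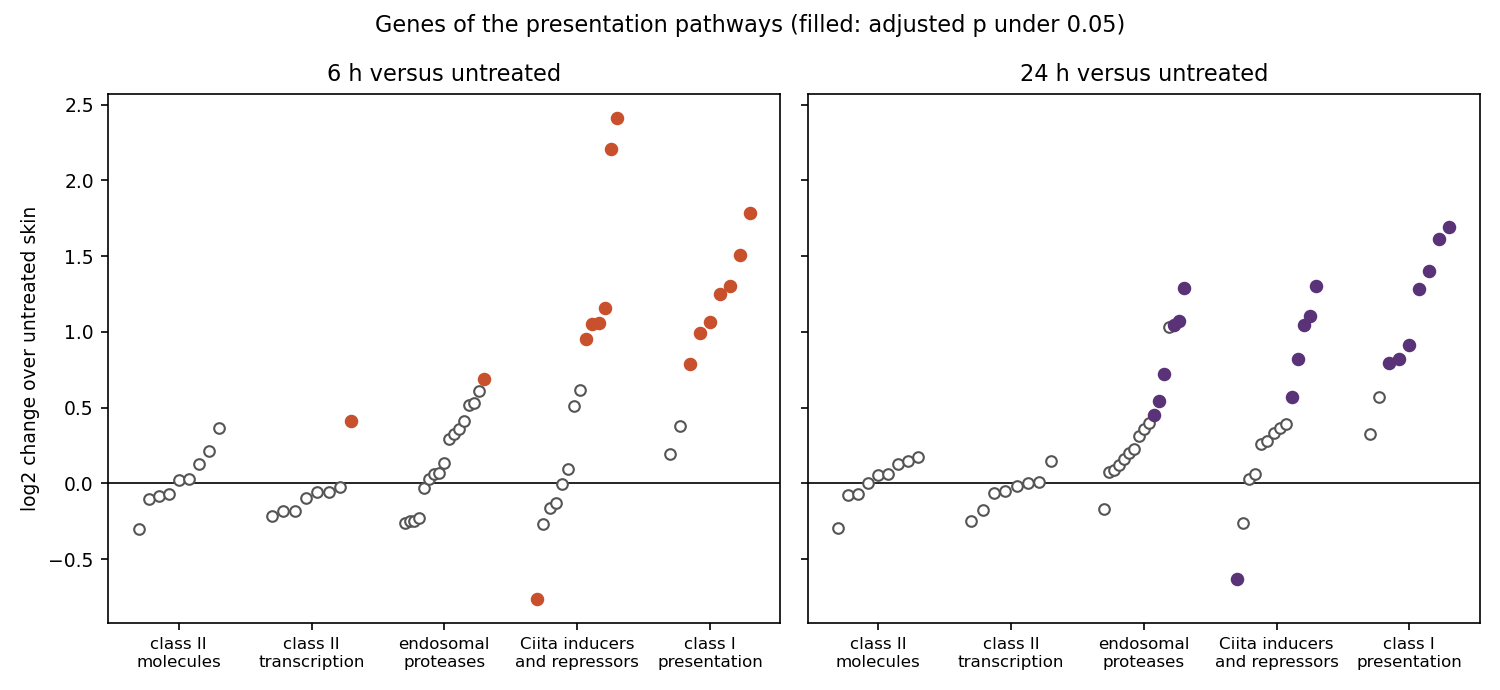
Log2 change against untreated skin (y axis) of the genes of 5 lists (x axis, the 7 genes included) at 6 h and at 24 h, with a point for each gene in order of its change, filled where the adjusted p was under 0.05. Filled points are absent among the class II molecules, and 7 of 9 class I presentation genes are filled at 6 h and at 24 h. The class I list as measured held no class I heavy chain.

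Markers of cells that carry class II were set beside these values. Of 13 markers of dendritic and Langerhans cells, 1 fell at 1.5 h, 1 rose at 6 h and 1 fell at 24 h. Cd209a, a lectin of dermal dendritic cells, was at -0.62 at 1.5 h (adjusted p = 0.0357) and -1.09 at 24 h (adjusted p = 2.57e-04), and averaged 6.97 at 24 h and 8.06 in untreated skin. The call at 1.5 h was lost without any of 5 single arrays of these groups, and that at 24 h held in each setting. Kmo, the kynurenine monooxygenase, was at 0.77 at 6 h (adjusted p = 0.0272), a call lost without any of 4 single arrays. Other markers of the list ran opposite to Cd209a at 24 h without passing, with all 3 arrays above all 3 of untreated skin. Ccr7 averaged 6.03 at 24 h and 5.55 in untreated skin, Batf3 6.24 and 6.07, and Kmo 5.30 and 4.89. The mean of the 13 markers lay between 6.38 and 6.48 at 24 h and between 6.39 and 6.61 in untreated skin.

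Most of the monocyte markers had higher means at 24 h than in untreated skin. Of 7 such markers, 1 rose at 1.5 h, 2 rose at 6 h and 4 rose at 24 h, and their mean lay between 8.06 and 8.43 at 24 h and between 6.70 and 7.19 in untreated skin. Fcgr1, the high-affinity receptor for IgG, was at 3.15 at 6 h and 3.16 at 24 h (adjusted p = 7.97e-07 and 1.45e-06). Plac8, an interferon-responsive gene of monocytes, was at 1.17, 2.58 and 2.72 at 1.5 h, 6 h and 24 h, and Chil3, a chitinase-like protein of monocytes and macrophages, at 1.82 at 24 h. Of these calls, those of Plac8 at 1.5 h and of Chil3 at 24 h were lost without single arrays, with an adjusted p of up to 0.129 and 0.0605. Of 11 macrophage markers, 1 fell at 6 h and 2 rose at 24 h, and their mean lay between 8.95 and 9.26 at 24 h and between 8.58 and 9.21 in untreated skin. Adgre1, the antigen F4/80, was at 0.89 and C1qb, a chain of complement C1q, at 0.73 at 24 h (adjusted p = 0.0422 and 0.0489). Cd163, a haemoglobin scavenger receptor, was at -0.77 at 6 h (adjusted p = 0.0437). Without single arrays the adjusted p of these 3 reached 0.176, 0.186 and 0.169. Itgam, C1qc and Cd68 did not pass at 24 h, with all 3 arrays above all 3 of untreated skin. Itgam averaged 8.62 at 24 h and 7.63 in untreated skin, C1qc 11.03 and 10.57, and Cd68 10.49 and 9.94. Other markers of both lists ran the opposite way at 24 h without passing, with all 3 arrays below all 3 of untreated skin. F13a1, a subunit of clotting factor XIII, was at -0.73 (adjusted p = 0.135), Cd163 at -0.70 (0.0896), Mrc1, the mannose receptor, at -0.52 (0.191) and Mertk, a receptor kinase for dying cells, at -0.20 (0.328). How many of all genes separated from untreated skin without overlap was not counted. The part of monocytes or macrophages in the Ctss result was not tested.

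Of 9 B cell markers, 0 passed at any time. Their mean was 5.93 in replicate 1 of 1.5 h and 5.63 in replicate 1 of 6 h, and between 4.08 and 4.39 in the other 10 arrays. The same 2 arrays had Glycam1, a ligand made by lymph node vessels, at 11.38 and 10.88, against 3.87 to 4.46 elsewhere. Of 3 lymph node vessel markers, 1 rose at 6 h (Cxcl13 at 1.21, adjusted p = 0.0348), a call lost without any array of 6 h or without replicate 2 or 3 of untreated skin (adjusted p of 0.0731 to 0.108). The Cxcl13 call was also lost in 3 of 8 other settings, among them the fit without both arrays high in Glycam1 (adjusted p = 0.0633). B cells carry class II, and H2-Aa, H2-Ab1, H2-Eb1, H2-Ea, H2-DMa and Cd74 in these 2 arrays lay inside the range of the other arrays. H2-Oa lay above all other arrays in both, at 6.21 and 5.95, against at most 5.63 elsewhere. H2-Ob (5.66) and H2-Eb2 (4.57) were highest in replicate 1 of 6 h. A link of these values to B cells was not tested. Without both arrays 0 of the 7 genes passed at 1.5 h or 6 h, and Ctss at 24 h still passed. Of 8 keratinocyte and fibroblast markers, 0 passed at 1.5 h and 6 h and 2 fell at 24 h. These were Lor at -0.46 and Krt1 at -0.44, the cornified layer protein loricrin and a keratin of the upper epidermis (adjusted p = 0.0277 and 0.0436). The mean of the 8 lay between 10.95 and 11.50 at 24 h and between 11.44 and 11.61 in untreated skin, and without single arrays the 2 calls reached adjusted p of 0.1 and 0.146.

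**Figure D4:**
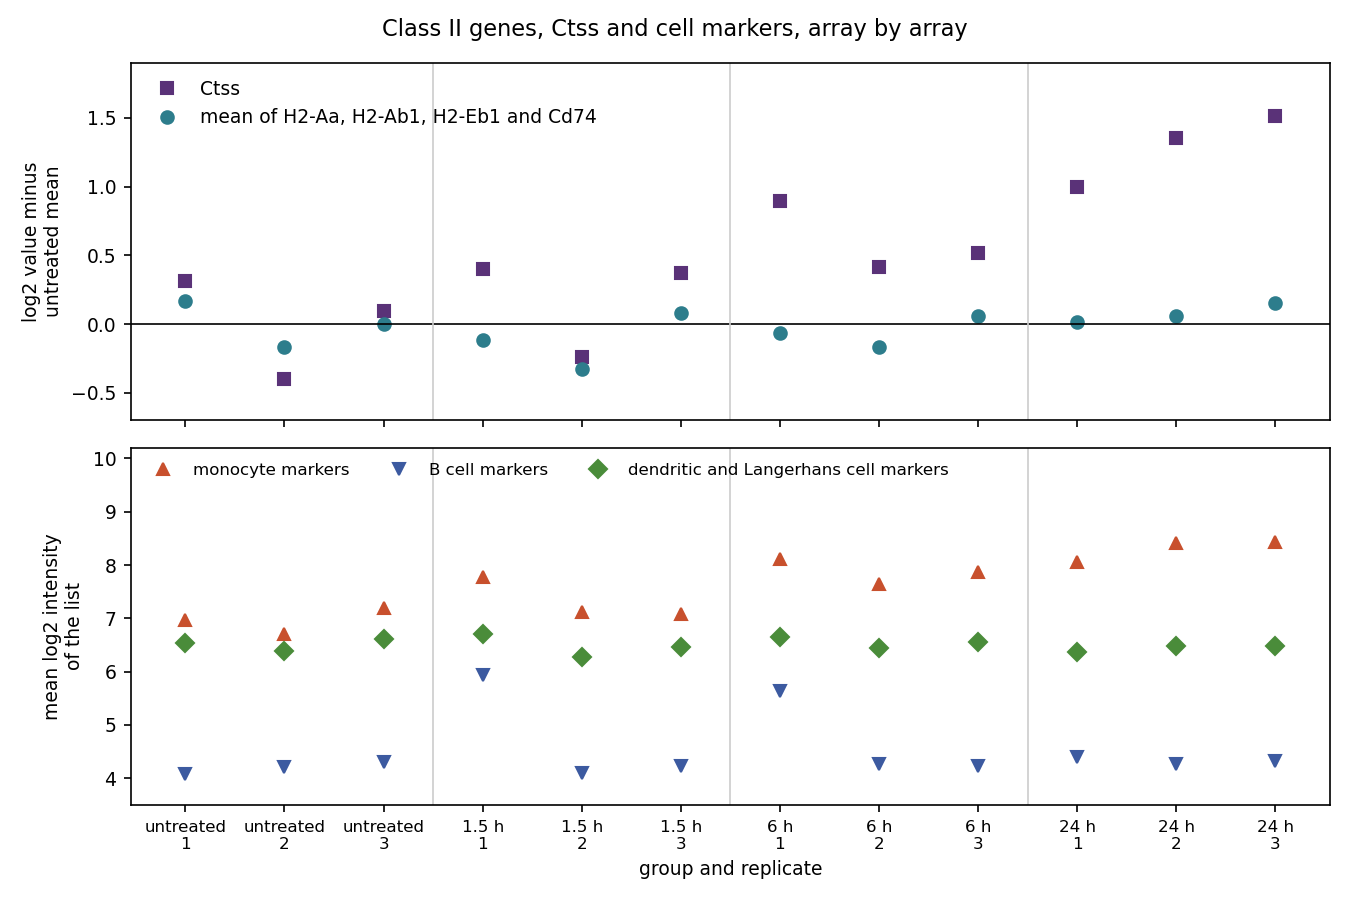
Each of the 12 arrays (x axis, by group and replicate), with the log2 difference of Ctss and of the mean of H2-Aa, H2-Ab1, H2-Eb1 and Cd74 from untreated skin (upper y axis) and the mean log2 intensity of 3 marker lists (lower y axis). At 24 h Ctss lies between 1.00 and 1.51 and the class II mean between 0.02 and 0.15, and the B cell markers stand high in replicate 1 of 1.5 h (5.93) and replicate 1 of 6 h (5.63).

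The genes whose values followed the class II genes most closely over the 12 arrays were ranked by Pearson's r among 2933 genes with an SD of at least 0.3. The arrays share their groups and their processing, so r is given as a description. For the mean of H2-Aa, H2-Ab1, H2-Eb1 and Cd74 they were Mmp27, a matrix metalloproteinase (r = 0.83, rho = 0.69), St8sia4, a sialyltransferase (0.81, 0.59), Ms4a7, a membrane protein of macrophages (0.80, 0.78), Rassf4, a Ras association protein (0.79, 0.75), and Clec7a, the beta-glucan receptor dectin-1 (0.79, 0.81). Their r over deviations from group means ran from 0.77 to 0.87, and r without the 2 arrays farthest from the median of the class II mean ran from 0.69 to 0.70.

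For Ctss the closest genes were Tmem219, a membrane receptor gene (r = 0.98, rho = 0.96), Ifnar2, a chain of the type I interferon receptor (0.97, 0.94), C1s1, the complement protease C1s (0.96, 0.96), Ctsz (0.96, 0.93) and Tnfrsf1b, a receptor for tumour necrosis factor (0.96, 0.96). All 5 were higher at 24 h than in untreated skin, at 0.66, 0.77, 0.87, 1.07 and 0.81. They were chosen for following Ctss over these same arrays, so this rise is a description and no separate result. For Ciita the closest genes were Snap91, a clathrin assembly protein (r = 0.83), Cyp2j12, a cytochrome P450 (0.82), Twist2, a dermal transcription factor (0.81), Hsd17b2, a steroid dehydrogenase (0.81), and Pnpla5, a lipase of the patatin family (0.80). For Ciita r rested largely on 2 arrays and ran from 0.25 to 0.65 without them. The 3 sets shared no gene.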

How the data were processed

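The table held 35556 probe sets over 12 arrays as log2 values, which the authors computed by RMA (Affymetrix Expression Console 1.1) according to the submitters' processing notes. RMA quantile-scales the arrays, so a shift shared by most genes would not be seen. The annotation listed 1 gene symbol for 21789 probe sets, several for 1621, and 12146 were not in it. The probe set with the highest mean over all arrays stood for each of 19938 genes (999 had several). limma 3.58.1 in R 4.3.3 was fitted to all 4 groups (8 residual and 5.24 prior degrees of freedom) and checked on simulated data. An exact permutation test of 3 against 3 cannot go below p = 0.1. Array medians lay between 5.53 and 5.76, and r between arrays of a group between 0.98 and 0.99. The labels do not say whether replicate numbers pair the arrays, and the main fit treated them as unpaired. The 3 arrays in each group limit the precision. The 7 genes and the gene lists were chosen with earlier results of these data known. All 7 genes were named, with up to 4 genes of a list and time (the 3 largest changes that passed and the largest the other way), and H2-Oa, H2-Ob, H2-Ea, H2-Eb2, Ifi30, Rfx5, Ifng, Irf1 and Nlrc5 in any case. Marchf1, Cd83, Glycam1, F13a1, Mrc1, Mertk, Ccr7, Batf3, B2m, Ctsw, Itgam, C1qc, Cd68 and, at 24 h, Sppl2a, Cd163 and Kmo were added after their values were seen. Alternatives changed scaling, filter, probe set choice, prior, samples and block.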

Additional observations from a re-analysis of the deposited data

Results flagged for a closer look

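Ctss differed between 24 h and 1.5 h by a test of the difference itself, at 1.11 on the log2 scale (24 h minus 1.5 h, adjusted p = 0.0112 in limma). All 3 arrays of 24 h lay above all 3 of 1.5 h.

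H2-Ab1 was above its untreated mean in every array of 24 h and below it in every array of 1.5 h. The means differed by 0.287 (24 h minus 1.5 h), and limma's test of that difference did not pass (adjusted p = 0.337).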

How the results depend on the processing

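The Ctss rise at 24 h kept its call in each of 8 other settings (1.26 to 1.34 on the log2 scale, adjusted p up to 0.0178) and without each array in turn (1.09 to 1.44), and the replicate block gave 1.29 (adjusted p = 0.00169). Same-numbered arrays correlated at -0.215 to 0.334 over 18 pairs after group means were removed, 4 of them over 0.1. Arrays of different numbers correlated at -0.285 to 0.238 over 36 pairs, 7 of them over 0.1. With the replicate block, 442, 1136 and 670 genes of all changed at 1.5 h, 6 h and 24 h against untreated skin, beside 439, 1215 and 670 without it, and it changed the call of none of the 7 genes. H2-Aa changed sign with arrays centred on their medians, at 1.5 h (0.079) and at 6 h (-0.004). With centred arrays, and also with dim genes left out, 1 of the 7 genes (H2-DMa) passed between 6 h and 1.5 h. Beside it passed 4609 of 19938 genes with centred arrays and 3037 of 11296 with dim genes left out. Without the 2 arrays high in Glycam1, 198 of all genes changed at 1.5 h. Leaving out 1 array at a time gave 97 to 597 changed genes at 1.5 h (fewest without untreated replicate 2), 712 to 1364 at 6 h (fewest without untreated replicate 3) and 423 to 756 at 24 h (fewest without untreated replicate 2). The members changed between 24 h and 1.5 h were then 0 to 1. Changes that took either sign were those of H2-Aa at 1.5 h (-0.131 to 0.101), 6 h (-0.053 to 0.126) and 24 h (-0.030 to 0.149), H2-Ab1 at 6 h (-0.195 to 0.037), H2-Eb1 at 6 h (-0.206 to 0.044), H2-DMa at 1.5 h (-0.003 to 0.151), Ciita at 6 h (-0.145 to 0.108) and Ctss at 1.5 h (-0.024 to 0.386). The causes were not tested. Depth has no counterpart on arrays, and the deposited values carry no detection calls, so dim genes such as Ifng and H2-Eb2 may lie at background.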
